A study of Homo sapiens with 24 samples.

Results

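The transcript levels of MYC and of 7 genes whose proteins work with or against it were followed in K562 cells over 46 h. The genes were MYC (ENSG00000136997), MAX (ENSG00000125952), MXD3 (ENSG00000213347), MXD4 (ENSG00000123933), MXI1 (ENSG00000119950), MNT (ENSG00000070444), MLX (ENSG00000108788) and MGA (ENSG00000174197). They were listed by name as a network, and no value entered the rule, although earlier results of these data were known when the list was made. All 8 of the 8 listed genes were found among the 12285 genes of the deposited expression table.

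K562 is an established suspension line from a human chronic myeloid leukaemia, and it carries red-cell features. The cells were kept in RPMI medium with 10% bovine calf serum and antibiotics, and a population of similar cell size was collected by centrifugal elutriation and returned to culture. RNA was collected at intervals of 2 h between 0 h and 46 h, giving 1 library at each of 24 time points. There were no treated groups and no replicates, so each value is that of a single library, and all cells came from 1 line.

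MYC is a transcription factor that binds DNA only as a dimer with MAX, through the E-box CACGTG and related sequences, and promotes ribosome production, nucleotide synthesis and growth. The MXD proteins (MXD3, MXD4 and MXI1), MNT and MGA also pair with MAX. The MXD proteins and MNT recruit the SIN3 corepressor and MGA a Polycomb complex named PRC1.6, so they oppose MYC at shared sites. MLX is a relative of MAX that pairs with MNT, MXD4 and the nutrient sensors MLXIP (MondoA) and MLXIPL (ChREBP). MYC protein and mRNA are both short-lived, and the BCR-ABL fusion kinase of K562 is one of the inputs known to keep MYC high.

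Since these proteins bind the E-box, promoter windows of the members were searched for CACGTG, a motif that is the same on both strands. The windows ran from 250 bases before to 50 bases after each RefSeq start (GRCh38.p14). MYC was not part of this search. Of the 12 windows of the other 7 members, 3 held the motif, 1 each at MXD4, MNT and MLX. Of all 35116 windows, 7.26% held it, and of the windows of genes in the expression table, 9.79%. Counted by gene, 3 of the 7 members had at least 1 such window (42.9%), against 13% of the genes in the expression table with a window. The 30 bases around each match are shown 5′ to 3′ on the strand of the gene, with the motif in capitals.
MXD4: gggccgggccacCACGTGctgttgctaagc
MNT: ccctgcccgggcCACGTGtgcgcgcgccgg
MLX: gcgggcgcgggtCACGTGggcacgccaccc
The MXD4 stretch lies at chr4:2262330-2262359 on the minus strand, with the first base of the motif at position −238 from the start. The MNT stretch lies at chr17:2401236-2401265 on the minus strand, with the motif at −193. The MLX stretch lies at chr17:42567038-42567067 on the plus strand, with the motif at −50. All 3 lie before the start of the gene in the proximal promoter. The match is one of letters only, and binding was not measured here.

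The expression table held FPKM values, which are scaled to transcript length and to library size, so levels of different genes can be set side by side. Read counts were not recovered from them and the depth is unknown. The summed FPKM was 566247 at 16 h and 591309 at 18 h and lay between 456791 and 520382 at the other time points. The study named 16 h and 18 h as affected time points (STRIPEs) and 32 h as a milder one. Values at 16 h and 18 h are therefore given apart, and 22 time points without them are used where stated. Erythroid markers summed to 4085 to 7933 FPKM over those 22 time points and were 2784 at the lowest of all 24. Of the markers of other cells, COL1A2 of fibroblasts had at most 3.94 FPKM and LYZ of myeloid cells 10.7 to 28.2 FPKM, and no other marker of these types is reported here. LYZ was higher on the second day at 12 of 12 matched hours.

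MYC was the most abundant transcript of the network and followed a broad arc on the first day. In steps of 2 h from 0 h to 22 h its FPKM was 124, 97.0, 129.9, 168, 149.5, 173, 177, 172, 183, 157, 119 and 112. From 24 h to 46 h it was 98.1, 113, 123, 134, 165, 138, 126, 122, 118, 124, 138 and 145. The low points were thus at 2 h and 24 h, with a plateau from 6 h to 18 h on the first day, a narrower peak at 32 h on the second, and a further climb at the end. The peak at 32 h is that of 1 library, at the time point named as a milder STRIPE, which the 22 time points keep. MAX, MXI1 and MGA also had their second-day highest values at 32 h, while MXD3, MXD4, MNT and MLX did not. Over the 22 time points without 16 h and 18 h the highest value was 1.83-fold the lowest. As RNA came from whole cultures, fewer cells of a type and less RNA per cell cannot be told apart.

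MAX, the obligate partner of MYC, had by far its highest values in 2 libraries. From 0 h to 22 h its FPKM was 36.5, 36.3, 39.1, 56.3, 48.3, 46.4, 49.2, 49.5, 117, 129, 44.1 and 54.3. From 24 h to 46 h it was 41.7, 43.8, 54.0, 61.6, 72.9, 49.8, 45.9, 48.1, 47.1, 46.5, 46.6 and 46.1. The values of 117 and 129 are those of 16 h and 18 h, and the next highest, 72.9, is that of 32 h. Outside 16 h and 18 h the highest value, at 32 h, was 2.01-fold the lowest, at 2 h, and the coefficient of variation was 16.8%, against 17.7% for MYC.

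**Figure D1:**
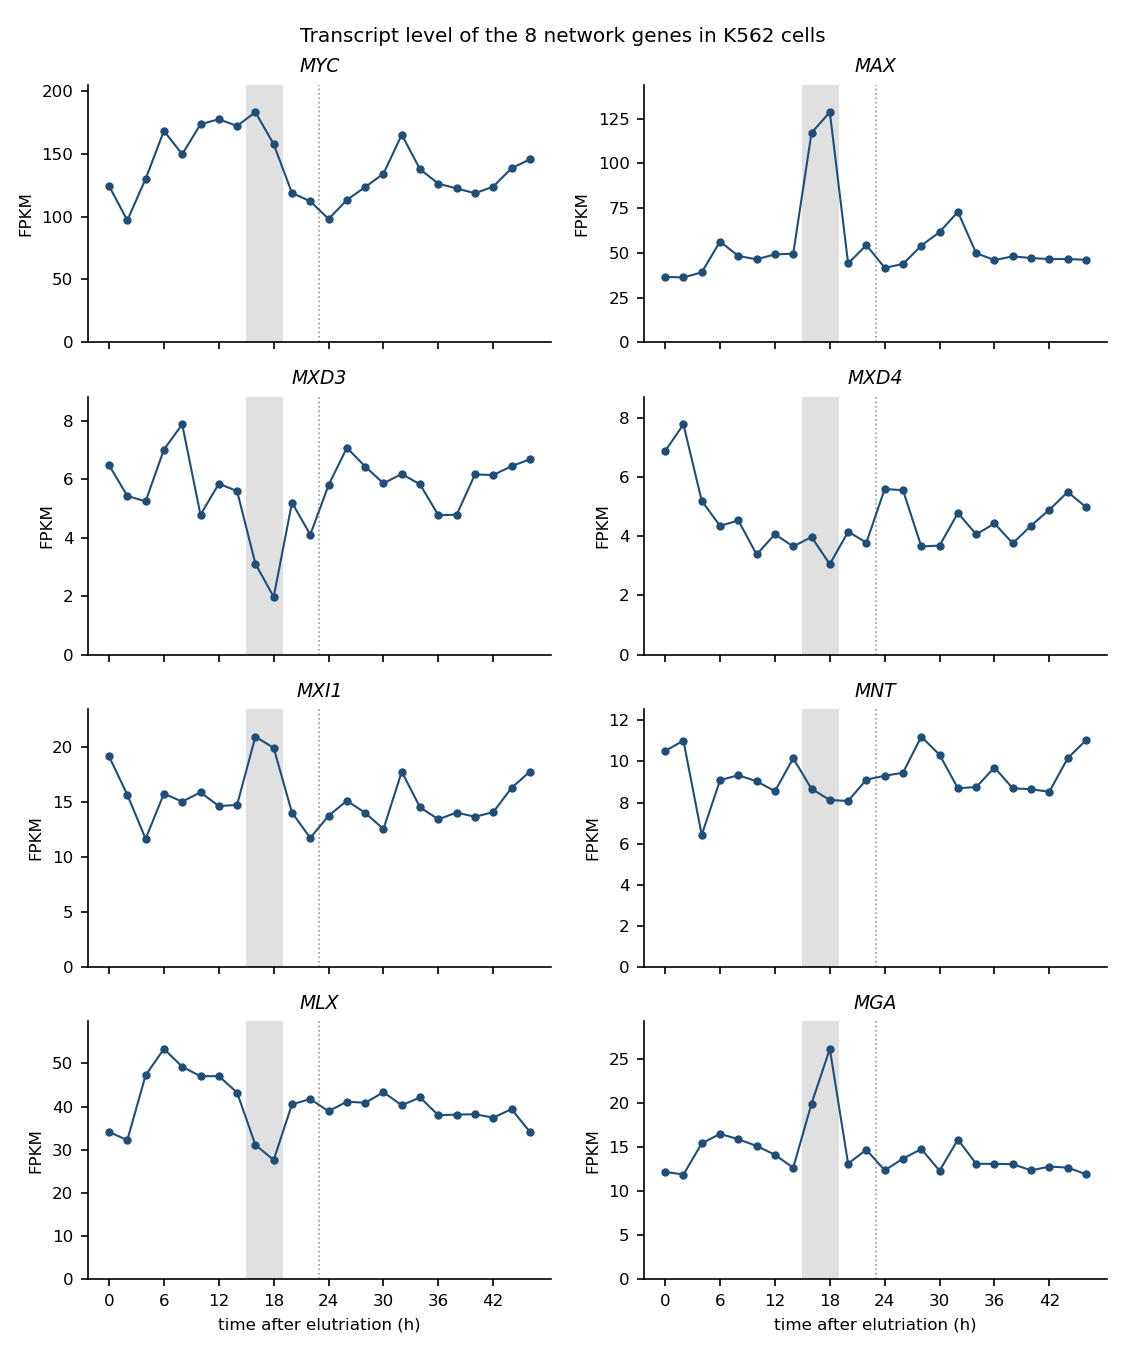
FPKM of each of the 8 genes (vertical axes, linear and starting at 0, with a scale for each gene) against hours after elutriation, 1 library per point. The grey band marks 16 h and 18 h and the dotted line divides the first day from the second. MAX and MGA have their highest points in the band and MXD3 and MLX their lowest.

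The members that pair with MAX against MYC all had lower median levels than MAX. MXI1, an MXD-family repressor also called MXD2, ranged from 11.7 to 19.2 FPKM over the 22 time points, with a median of 14.7 over all 24. Its highest value there was at 0 h, and it was 17.8 at both 32 h and 46 h. In the same order its FPKM was 19.2, 15.7, 11.7, 15.8, 15.1, 15.9, 14.7, 14.8, 20.98, 19.96, 14.1 and 11.7 on the first day and 13.8, 15.1, 14.04, 12.6, 17.8, 14.5, 13.5, 14.1, 13.7, 14.1, 16.3 and 17.8 on the second. MGA, the scaffold of PRC1.6, ranged from 11.9 to 16.5 FPKM and varied least, with a coefficient of variation of 10.5% over the 22 time points. In the same order its FPKM was 12.2, 11.9, 15.4, 16.5, 15.9, 15.1, 14.1, 12.6, 19.9, 26.1, 13.1 and 14.7 on the first day and 12.4, 13.7, 14.8, 12.3, 15.8, 13.1, 13.1, 13.1, 12.3, 12.8, 12.7 and 11.9 on the second. Outside 16 h and 18 h its 2 highest values were 16.5 at 6 h and 15.9 at 8 h. MNT, the broadly expressed repressor that also pairs with MLX, ranged from 6.42 FPKM at 4 h to 11.2 FPKM at 28 h. In the same order its FPKM was 10.5, 11.01, 6.42, 9.09, 9.33, 9.04, 8.55, 10.2, 8.67, 8.12, 8.08 and 9.12 on the first day and 9.30, 9.45, 11.2, 10.3, 8.69, 8.75, 9.70, 8.69, 8.65, 8.53, 10.2 and 11.03 on the second. MNT therefore had low values at 4 h and 20 h and no plateau like that of MYC.

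MXD3 and MXD4 were the lowest members. MXD3, an MXD protein known from dividing cells, ranged from 4.10 FPKM at 22 h to 7.88 FPKM at 8 h. In the same order its FPKM was 6.48, 5.43, 5.24, 7.01, 7.88, 4.78, 5.85, 5.59, 3.11, 1.97, 5.20 and 4.10 on the first day and 5.80, 7.08, 6.44, 5.86, 6.18, 5.82, 4.77, 4.78, 6.16, 6.15, 6.45 and 6.68 on the second. Its lowest values of all were those of 16 h and 18 h. MXD4, known from cells that leave the cycle, varied most, with a coefficient of variation of 23.2%. From 0 h to 22 h its FPKM was 6.87, 7.78, 5.19, 4.35, 4.53, 3.38, 4.06, 3.65, 3.97, 3.05, 4.15 and 3.79. From 24 h to 46 h it was 5.59, 5.55, 3.65, 3.68, 4.78, 4.06, 4.43, 3.76, 4.36, 4.89, 5.49 and 4.98. On each day MXD4 was highest at the hour at which MYC was lowest, 2 h on the first and 24 h on the second.

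MLX was low at the start of the first day and at 16 h and 18 h, and moved within a narrow band from 24 h to 44 h. From 0 h to 22 h its FPKM was 34.1, 32.2, 47.2, 53.3, 49.2, 47.01, 47.04, 43.2, 31.1, 27.6, 40.5 and 41.7. From 24 h to 44 h it lay between 37.4 and 43.3, and at 46 h it was 34.1. The early step of MLX between 2 h and 4 h had no counterpart between 26 h and 28 h, where it was 41.1 and 40.9.

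The order of the median levels was MYC (132 FPKM), MAX (47.6), MLX (40.4), MXI1 (14.7), MGA (13.1), MNT (9.10), MXD3 (5.83) and MXD4 (4.35). MYC was above MAX, MLX above MXI1, MGA above MNT and MNT above MXD3 at 24 of 24 time points. MAX was above MLX at 21 of 24, MXI1 above MGA at 18 of 24 and MXD3 above MXD4 at 20 of 24. The ranges of the last 3 pairs overlapped over the 22 time points, and their order was not the same in every library. Those of MNT and MXD3 overlapped as well, although MNT was the higher in each of the 24 libraries.

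The balance of MYC against its partners was described by ratios of FPKM, which measure mRNA and not protein. MYC over MAX had a median of 2.72 over the 22 time points. Its extremes were 3.74 at 10 h and 2.06 at 22 h, and it stayed between 2.17 and 2.58 from 24 h to 32 h. At 16 h it was 1.56 and at 18 h 1.22. The sum of the 5 repressive partners MXD3, MXD4, MXI1, MNT and MGA moved little, from 43.4 to 55.2 FPKM over the 22 time points, with 56.7 at 16 h and 59.2 at 18 h. MXD1, a further MXD gene outside the listed members, was left out of this sum. Its median was 10.2 FPKM, and it ranged from 5.68 to 12.1 FPKM over the 22 time points. MYC over the sum of the 5 went from 1.87 at 2 h to 3.75 at 12 h, and from 2.09 at 24 h to 3.10 at 32 h, the milder affected time point. The ratio to the repressive partners therefore had its low points at the same hours as MYC itself.

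**Figure D2:**
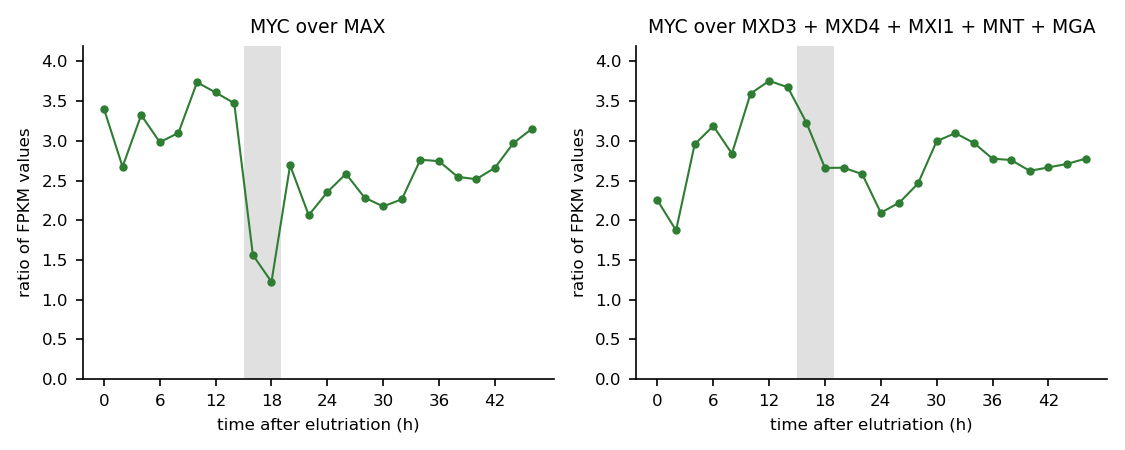
Ratio of MYC FPKM to MAX FPKM (left) and to the summed FPKM of MXD3, MXD4, MXI1, MNT and MGA (right) against hours after elutriation, on linear axes from 0. The ratio to MAX is 1.56 and 1.22 in the grey band (16 h and 18 h), while the ratio to the repressive partners is 3.23 and 2.66 there.

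At the 2 affected time points the members departed from their neighbours in opposite directions. For each gene the mean log2(FPKM + 1) at 16 h and 18 h was compared with the straight line between 14 h and 20 h, and the same measure at 16 other consecutive pairs of time points gave its usual range. The values are given as a description, with no test. MAX was 1.37 above its line on the log2(FPKM + 1) scale (2.59-fold), against −0.34 to 0.36 at the reference pairs. MAX was the 1 member past 2-fold above, where 8.95% of 12253 genes were, and 0 members were past 2-fold below, where 7.11% of genes were. With upper-quartile scaling of the libraries, genes 2-fold above and below numbered 579 and 1296, against 1097 and 871 as deposited, and with median centring 802 and 1126. The median deviation of all genes was 0.14.

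Among the repressive partners of MAX, MGA and MXI1 were above and MXD3 below. MGA was 12.6 FPKM at 14 h, then 19.9, 26.1 and 13.1 at the next 3 time points, a log2 deviation of 0.78 against −0.17 to 0.20. MXI1 was 14.8, 21, 19.96 and 14.1 FPKM at the same time points, a deviation of 0.48 against −0.34 to 0.29, or 0.26 with upper-quartile scaling. MXD3 was 5.59, 3.11, 1.97 and 5.20 FPKM, a deviation of −0.87 against −0.29 to 0.49. These 3 members left their usual range as deposited, while MNT (−0.10) and MXD4 (−0.12) stayed within it.

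MLX and MYC differed from each other there. MLX was 43.2, 31.1, 27.6 and 40.5 FPKM at 14 h, 16 h, 18 h and 20 h, a deviation of −0.50 against −0.13 to 0.33. MYC was 172, 183, 157 and 119 FPKM, a deviation of 0.25, within its range of −0.36 to 0.29. In all, 5 of 8 members were outside the range of their reference pairs, as were 71.6% of all 12253 genes, so leaving that range was common to most genes at these time points.

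Across 12148 genes the deviation at 16 h and 18 h went down with the GC content of the transcript (Pearson r = −0.525, a value across genes, and genes are no independent replicates). The median deviation was 0.57 in the 10% of genes lowest in GC content and −0.71 in the 10% highest. GC content was 42.8% for MGA, 47.4% for MXI1, 51.3% for MAX, 54.1% for MLX, 58.7% for MYC, 62.3% for MXD4, 63.6% for MNT and 65.3% for MXD3, against a median of 49.1% over all genes. With the median deviation of 20 bins of GC content removed, an alternative chosen after seeing the data, MAX was 1.5 above and MLX 0.24 below. MXD3 then came to 0.092 above, so its direction was lost, while MYC came to 0.77, MNT to 0.64, MXD4 to 0.62, MGA to 0.43 and MXI1 to 0.34 above.

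3 members overlap other expressed genes in the reference annotation, and since the files do not say whether counting used strand, reads of such pairs may not be told apart. MAX overlaps FNTB on the opposite strand, whose FPKM from 14 h to 20 h was 7.92, 7.51, 7.26 and 6.59. It also overlaps the readthrough gene CHURC1-FNTB, whose deviation was −0.87. The FPKM of CHURC1-FNTB varied widely, from 0.0756 to 10.9 over the 22 time points without 16 h and 18 h. MXD3 overlaps RAB24 on its own strand, with a deviation of −0.63, and PRELID1 on the other, with 0.61. MLX overlaps PSMC3IP on the other strand, with 22.4, 40.3, 41.9 and 22.9 FPKM from 14 h to 20 h, high where MLX was low. At 16 h and 18 h FNTB had a deviation of 0.027. RAB24 was below its line there, as MXD3 was, and PRELID1 was above. The part of these overlaps in the members' values was not tested.

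**Figure D3:**
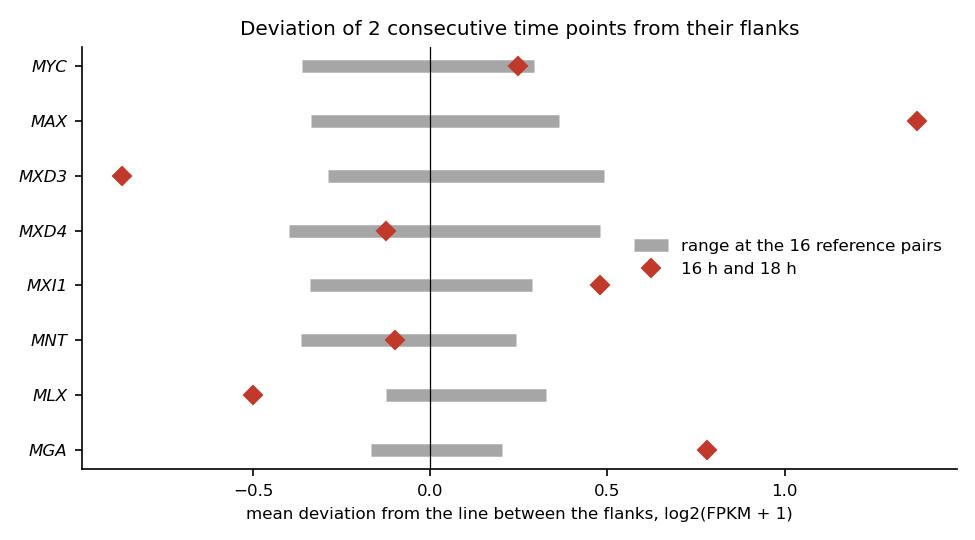
Mean deviation of each gene at 16 h and 18 h from the line between 14 h and 20 h, in log2(FPKM + 1) (red diamonds), with the range of the same measure at 16 other pairs of time points (grey bars). The diamonds of MAX (1.37), MGA (0.78), MXI1 (0.48), MLX (−0.50) and MXD3 (−0.87) lie outside their bars.

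To ask whether the members repeated with a cycle of 24 h, each was scored with JTK, the best Kendall agreement with a 24 h cosine over 12 phases, tested against 100000 orderings of the time points. 0 of 8 members had an adjusted p at or below 0.05, where 13% of all 12285 genes did, and a limma fit of a cosine and a sine also called 0 of 8. The nearest were MLX, with a best phase of 6 h (p = 0.00761, adjusted permutation p = 0.0538), and MYC, with a best phase of 12 h (p = 0.0106, adjusted permutation p = 0.0641). MXD4 followed with a phase of 2 h (adjusted permutation p = 0.0999). The others were MNT (0.239), MAX (0.312), MXD3 (0.330), MGA (0.436) and MXI1 (0.877). Unadjusted, 3 had a p under 0.05, namely MYC, MLX and MXD4, where 30.2% of all genes did.

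The calls for MYC and MLX depended on the setting. For MYC the adjusted p was 0.0438 at a period of 20 h, 0.0447 after interpolation of 16 h and 18 h, 0.0495 after Z-score quantile normalization and 0.0373 with median centring. It was 0.0690 when 16 h and 18 h were left out and 0.226 at a period of 28 h. For MLX it was 0.0471 among genes averaging 10 FPKM or more and 0.139 without 16 h and 18 h. Successive time points are not independent, and a drift over time lowers such p-values.

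To ask whether the second day differed from the first, each time point from 24 h on was paired with the one 24 h earlier, which gave 12 pairs, and the mean paired difference of log2(FPKM + 1) was tested with limma over 12253 genes. 0 of 8 members were called in either direction, where 9.57% of genes were higher and 5.16% lower on the second day. MYC averaged 147 ± 29.3 FPKM on the first day and 129 ± 17 FPKM on the second (SD over 12 time points), a difference of −0.17 ± 0.093 (SE, limma adjusted p = 0.228), and was lower at 8 of 12 matched hours. MGA averaged 15.6 ± 3.98 and 13.2 ± 1.13 FPKM, a difference of −0.20 ± 0.092 (limma adjusted p = 0.151). MGA was the 1 member below 0.05 before adjustment. The share of all genes below that level in this paired test is not given here. This count and the later unadjusted limma counts therefore cannot be set against it. The largest differences of MGA were at the hours matched to 16 h (−0.65) and 18 h (−0.98). The differences of the other 6 lay between −0.11 for MAX and 0.22 for MXD3, with limma adjusted p from 0.263 to 0.811.

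For MAX the direction rested on 2 pairs. Its difference was −1.30 and −1.45 at the hours matched to 16 h and 18 h, and the 10 other pairs gave 0.14 ± 0.075 (SE, limma adjusted p = 0.200) in place of −0.11. MXD3 came to 0.06 and MGA to −0.08 over those 10 pairs. MYC kept its sign, at −0.11. MYC differed most in the pairs that hold 16 h (−0.62) and 12 h and 14 h (−0.49 each), hours of its first-day plateau.

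**Figure D4:**
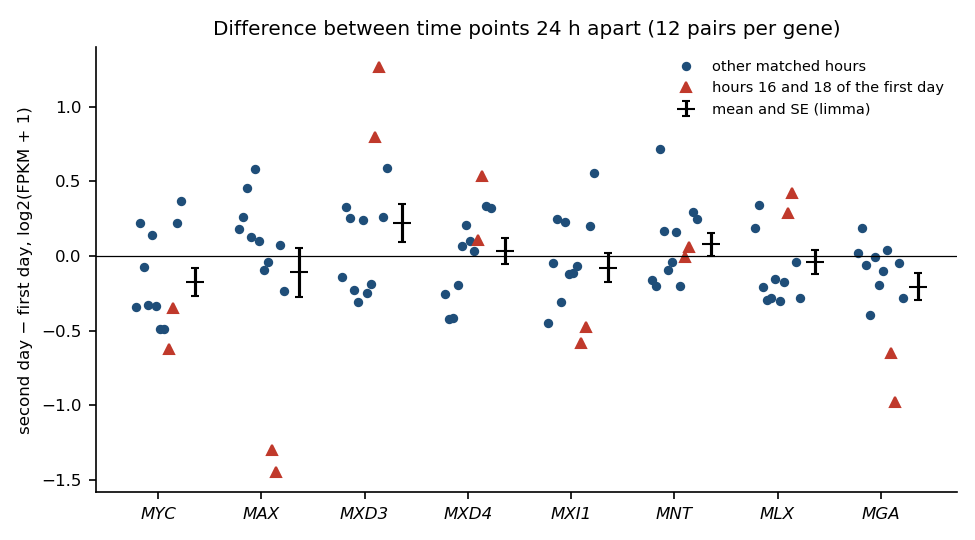
Difference of each gene between time points 24 h apart, second day minus first, in log2(FPKM + 1), for 12 pairs (points), with the limma mean and its SE (black). Red triangles are the pairs that hold 16 h and 18 h, and for MAX these 2 lie at −1.30 and −1.45 while the other pairs lie at −0.23 or above.

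To ask which partners followed MYC, the Pearson correlation of log2(FPKM + 1) with MYC was computed over the 24 time points for all genes, with 100000 permutations and adjustment over 12252 genes. MAX was called (r = 0.546, adjusted permutation p = 0.0394, with Spearman rho = 0.533 and adjusted p = 0.0758), where 8.12% of genes were called positive and 4.06% negative. MGA (r = 0.517, adjusted permutation p = 0.0538), MXI1 (0.476, 0.0941) and MXD4 (−0.521, 0.0604) were not, although MGA was called when only genes averaging 10 FPKM or more were tested (adjusted permutation p = 0.0481). Nor were MLX (0.213), MNT (−0.165) and MXD3 (−0.184), whose adjusted p ranged from 0.492 to 0.607.

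The calls also changed with the time points used. Without 16 h and 18 h, MAX had r = 0.492 (adjusted permutation p = 0.116, rho = 0.438) and MLX had r = 0.607 (adjusted permutation p = 0.0419, rho = 0.538 with adjusted p = 0.109), where 5.37% of genes were called positive and 3.09% negative. MXD3 then came to 0.204. Without the 2 time points farthest from the MYC median (2 h and 16 h), MAX had r = 0.389 (adjusted permutation p = 0.268) and MLX, with 18 h kept in, 0.284. The call for MAX was thus lost without either pair of time points, and that for MLX was not made when 6 h and 32 h were left out together with 16 h and 18 h (r = 0.583, adjusted permutation p = 0.0913). Between successive time points, the 23 changes of MAX and of MYC had r = 0.573 (adjusted permutation p = 0.0337). These changes keep 16 h and 18 h, so they cannot show whether MAX followed MYC outside the affected libraries. From 18 h to 20 h, MAX went from 129 to 44.1 FPKM and MYC from 157 to 119. The share of all genes called on this measure is not given here. All 7 partners were tested within the same family of 12252 genes.

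**Figure D5:**
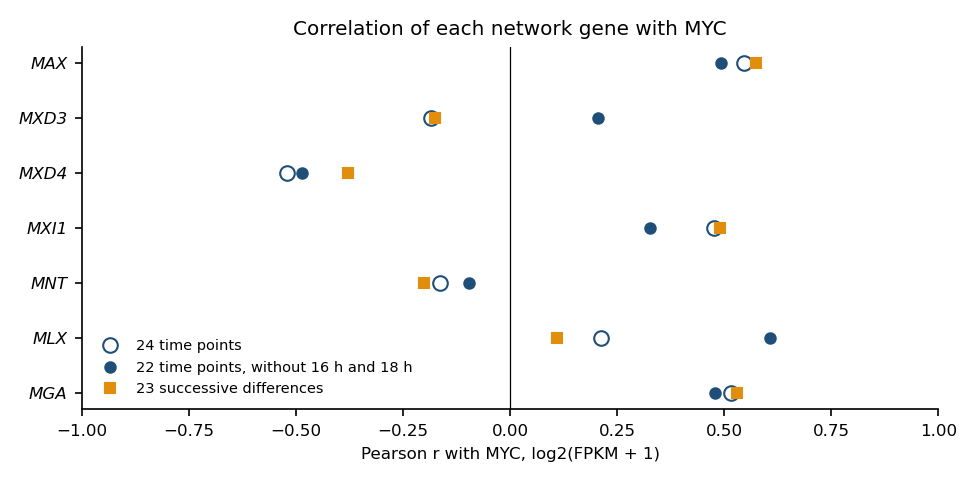
Pearson r of each of the other 7 genes with MYC in log2(FPKM + 1), over 24 time points (open circles), over 22 time points without 16 h and 18 h (filled circles) and between 23 successive differences (squares). MAX and MGA lie between 0.479 and 0.573 on all 3 measures, MXD4 is negative on all 3, and MLX moves from 0.213 to 0.607 when 16 h and 18 h are left out.

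Among the members themselves, MLX and MGA were the most alike over the 22 time points (r = 0.78), while MAX and MXD4 ran opposite to each other (r = −0.61), as did MLX and MXD4 (r = −0.56). Over all 24 time points MAX and MGA had r = 0.84 and MAX and MXD3 r = −0.70. These values are descriptions over successive libraries, and the 2 genes of a pair share the depth and base composition of each library.

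The genes most like MYC over the 22 time points, among 7085 genes averaging 10 FPKM or more, were UBAC1, a ubiquitin ligase subunit (r = 0.905), IKZF1, the blood-cell transcription factor Ikaros (0.853), and TIMM44 of the mitochondrial import motor (0.843). EXOC6 of the exocyst (0.836) and the nucleoside transporter SLC29A1 (0.822) followed. IKZF1 was 23.7 FPKM at 2 h and 49.4 at 10 h, and SLC29A1 57.9 at 2 h and 133 at 6 h. The most opposite were the autophagy gene ATG5 (−0.844), the heparan sulfate enzyme gene HS2ST1 (−0.837) and FAM199X (−0.810). ATG5 was highest at 2 h (35.3 FPKM) and lowest at 14 h (25.5 FPKM).

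The gene most like each other member was C9orf78 for MAX (r = 0.919), PAGR1 for MLX (0.897), the SUMO protease gene SENP1 for MGA (0.865) and DMTF1, a Myb-like transcription factor, for MXD4 (0.840). HERPUD1, which acts in degradation from the endoplasmic reticulum, was nearest to MXI1 (0.794), the inositol phosphate kinase gene IP6K2 to MNT (0.725) and the mitochondrial iron importer SLC25A37 to MXD3 (0.698). These values are over the 22 time points. Over all 24, r was 0.981 for C9orf78, 0.926 for PAGR1, 0.937 for SENP1, 0.764 for SLC25A37 and 0.666 for IP6K2. It was 0.535 for HERPUD1 and only 0.135 for DMTF1, whose likeness to MXD4 was thus not seen with 16 h and 18 h kept. C9orf78 was 116 FPKM at 2 h and 263 FPKM at 32 h, the same hours as the extremes of MAX.

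Other genes of the network were then described from lists of related genes. Of 4 further network genes tested, 2 were called higher on the second day and 0 lower, against 9.57% and 5.16% of all genes. MYCL, a MYC paralogue, rose from a mean of 3.36 FPKM to 4.89 FPKM, a difference of 0.43 ± 0.104 (SE, limma adjusted p = 0.0143), and was higher at 11 of 12 matched hours. MLXIPL, the glucose-sensing partner of MLX, rose from 1.34 to 2.42 FPKM (0.54 ± 0.115, limma adjusted p = 0.00761), higher at 12 of 12. Both reached their highest value at 46 h, MYCL with 8.92 FPKM and MLXIPL with 4.68 FPKM. LYZ rose with them, by 0.83, and the fibroblast marker COL1A2 by 0.35, and their part in these differences was not tested. MLXIP, the other MLX partner, was 22.99, 47.6, 48.6 and 22.98 FPKM from 14 h to 20 h, high together with MAX, and it was named for these values. MXD1 was not called between days (limma adjusted p = 0.895), and it followed MYC over the 22 time points (r = 0.655, adjusted permutation p = 0.0173), a gene singled out after its values were seen. MYCN was not analysed here.

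A few corepressor and cofactor genes were lower on the second day, where 5.16% of all genes were. Of 10 SIN3 complex genes, 0 rose and 1 fell, SAP30, from 31.3 to 23.6 FPKM (−0.38 ± 0.077, limma adjusted p = 0.00554). Of 8 PRC1.6 genes, 1 fell, the chromodomain protein gene CBX3, from 283 to 244 FPKM (limma adjusted p = 0.0338), and 3 fell without the pairs of 16 h and 18 h, namely CBX3, RING1 and WDR5, the last 2 chosen after their values were seen, where 6.80% of all genes were lower in that setting. Of 13 MYC cofactor genes, 2 fell, the acetyltransferase gene KAT5 from 28.3 to 22.9 FPKM (limma adjusted p = 0.0157) and HCFC1, a chromatin adaptor, from 56.7 to 46.0 FPKM (limma adjusted p = 0.00609). HCFC1 was lower at 12 of 12 matched hours, and WDR5, which is also on this list, fell without the pairs of 16 h and 18 h. Of 12 genes for MYC turnover, limma called 0 in either direction, with 3 under 0.05 before adjustment. The medians of these 4 lists lay between −0.07 and −0.14, against −0.01 for all genes.

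Among 36 genes known to be activated by MYC, 6 fell and 1 rose on the second day, against 5.16% of all genes lower and 9.57% higher. The median difference of the list was −0.16. LDHA, which makes lactate, fell from a mean of 840 to 622 FPKM (−0.42 ± 0.109, limma adjusted p = 0.0187), and ODC1, the first enzyme of polyamine synthesis, from 432 to 334 FPKM (−0.37 ± 0.091, limma adjusted p = 0.0159). TERT, the telomerase catalytic subunit, rose from 2.35 to 3.25 FPKM (0.36 ± 0.094, limma adjusted p = 0.0198). The other 4 that fell were SRM, ENO1, EIF4A1 and IMPDH2, named here to complete the count after their values were seen. Without the pairs of 16 h and 18 h, where 12.6% of all genes were higher and 6.80% lower, SRM (limma adjusted p = 0.0504) and EIF4A1 (0.0741) were no longer called. In that setting NME1 was called lower (limma adjusted p = 0.0287) and CCND2 higher (0.0284), both chosen after their values were seen.

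Of the same 36 genes, 9 were called positive and 1 negative in correlation with MYC over 24 time points, against 8.12% and 4.06% of all genes. Over 22 time points the counts were 7 and 1, against 5.37% and 3.09% of all genes, and the list had a median r of 0.32 and all genes 0.02. The 7 were chosen by these values: CAD, the pyrimidine synthesis enzyme (r = 0.713), MYBBP1A (0.704), the pseudouridine synthase gene DKC1 (0.667), POLD2, GNL3, RRP12 and PA2G4. CAD was 49.96 FPKM at 0 h and 81.2 FPKM at 10 h. The 1 negative gene, also chosen by its value, was CDC25A (−0.622), a cell-cycle phosphatase gene. Of the 31 list genes with a promoter window, 17 held the CACGTG motif (54.8%), against 13% of the genes of the table.

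Of 6 genes known to be repressed by MYC, 1 rose on the second day, CDKN1C (limma adjusted p = 0.0482), and 1 fell, KLF6 (limma adjusted p = 0.0280). Of all genes, 9.57% were called higher and 5.16% lower. Without the pairs of 16 h and 18 h neither was called (limma adjusted p = 0.0861 and 0.0680). TXNIP and ARRDC4, the 2 listed targets of the MLX heterodimers, named as the whole list, differed by −0.21 and −0.39 (limma adjusted p = 0.304 and 0.0609). Of 7 immediate early genes limma called 0, with 0 under 0.05 before adjustment. All 7, named here as the whole list, had their highest FPKM at 0 h. EGR1 was 242 there, IER2 164, JUN 63.0, JUNB 54.4, ATF3 37.2, DUSP1 33.3 and IER3 14.0. Their medians in that order were 7.48, 36.4, 4.50, 21.1, 7.40, 6.28 and 8.19. ATF3 was again high at 46 h (36.8). The paired test averages over matched hours, so high values at a single hour were not tested by it.

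Cell-cycle lists gave the timing beside which MYC can be read. Of 12 S phase genes, 1 was called higher on the second day, CCNE1 (0.22, limma adjusted p = 0.0457, and 0.0772 without the pairs of 16 h and 18 h). Of 9 G2/M genes limma called 0, with 1 under 0.05 before adjustment. Of all genes, 9.57% were called higher and 5.16% lower. Without the pairs of 16 h and 18 h, 12.6% of all genes were called higher and 6.80% lower. In that setting MCM5 and PCNA, chosen after their values were seen, were lower (limma adjusted p = 0.0333 and 0.0402). The G2/M gene TOP2A, chosen likewise, was higher in that setting (0.51, limma adjusted p = 0.00324). Leaving out 16 h and 18 h, the mean log2 level of the S phase genes was highest at 2 h and 26 h, that of the G2/M genes at 22 h and 34 h, and that of the MYC-activated genes at 6 h and 30 h. The G2/M hours are not sharp. The G2/M mean was 6.57 at 20 h and 6.59 at 22 h, and between 6.42 and 6.44 from 32 h to 38 h. With all time points kept it was highest at 18 h (6.92). The median r with MYC over the 22 time points was −0.35 for the S phase genes and −0.28 for the G2/M genes, against 0.02 for all genes. Of the S phase genes 0 were called positive and 3 negative, and of the G2/M genes 0 and 2, against 5.37% and 3.09% of all genes. Of 9 erythroid markers, limma called 0 between days, with 1 under 0.05 before adjustment and 1 lower without the pairs of 16 h and 18 h (HBZ, chosen after its values were seen). At 16 h and 18 h, 6 of the 9 were at least 2-fold below their line and 1 above, against 7.11% and 8.95% of all genes.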

How the data were processed

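RNA sequencing of 24 K562 samples, 1 per time point, was analysed. The deposited FPKM values were made by the authors with STAR and Cufflinks/Cuffnorm on GRCh37, as named in the submitters' processing notes and the methods. Tool versions and the annotation are not given in the sources used here. FPKM is normalized to transcript length and library size. A second deposited table holds a score per gene, the FPKM after Z-scoring and quantile normalization (ZQN), and it equalled a recomputed ZQN to within 8.9e-16. It was used only as an alternative. Depth is unknown, as counts were not recovered.

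Columns were matched to samples by hour. Symbols were matched for 11434 of 12285 identifiers. Tests used log2(FPKM + 1), which understates changes of low genes, and genes averaging 1 FPKM or more (12253), except the JTK ranking (all genes). Tests were limma 3.58.1 (R 4.3.3) and permutations in Python 3.11.15 with NumPy 2.4.6 and SciPy 1.17.1, with Benjamini-Hochberg adjustment over all genes tested, two-sided, and were tested on simulated data. p-values measure only the spread between successive libraries, which are not independent cultures. GC content and overlaps came from GENCODE 29 (GRCh38).

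The members and gene lists were chosen with earlier results of these data known. Named genes were the 8 members, the 5 genes most like and the 3 least like MYC, the gene most like each other member, and up to 3 called genes per list with the largest difference between days. Other genes, apart from members' overlapping genes, marker checks and whole short lists, were named after their values were seen.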

Additional observations from a re-analysis of the deposited data

How the results depend on the processing

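Each count and each member's value was recomputed with other pseudocounts, filters, scalings, periods and sets of time points. Of 42 counts over all genes under other settings, 30 stayed within 1.5 times the reported count. The JTK count fell from 1602 to 270 at a period of 20 h and to 437 at 28 h. Genes higher and lower on the second day numbered 424 and 351 at a mean of at least 10 FPKM, where fewer genes were tested. Genes correlated positively with MYC numbered 995 over 24 time points, 658 without 16 h and 18 h, 612 by Spearman rho, 382 with median centring and 635 after ZQN. Those correlated negatively numbered 498, 283 by Spearman rho and 218 at a mean of at least 10 FPKM. Genes 2-fold below at 16 h and 18 h numbered 871, and 1308 with a pseudocount of 0.1. Those 2-fold above numbered 1097, and 579 with upper-quartile scaling. The alternatives in the next sentences were added after seeing the data. Positive and negative correlations numbered 283 and 178 without the 2 time points farthest from the MYC median, and 249 and 217 without 6 h, 16 h, 18 h and 32 h. Genes 2-fold below numbered 326 with the GC trend removed.

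Values that changed sign were small or rested on the affected time points. Between days, MAX came to 0.14, MXD4 to −0.022 and MXI1 to 0.012 without the pairs of 16 h and 18 h, to 0.089, −0.012 and 0.026 without those of 6 h, 16 h, 18 h and 32 h, and MLX to 0.0017 with upper-quartile scaling. The correlation of MXD3 with MYC was 0.204 without 16 h and 18 h, 0.0071 after ZQN and 0.110 without 6 h, 16 h, 18 h and 32 h. The deviation of MXD3 was 0.092 with the GC trend removed. Where no value above shows it, the cause was not tested.

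The matched-hour block changed 0 calls among the members. No analysis with replicates, or with a replicate left out, was possible because there is 1 library per time point. Apart from the pairing by hour, no pairing was made, as the labels give no replicate numbers. Unknown depth limits the low members most, MXD3, MXD4 and MNT.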
